A study of Mus musculus with 2 samples.

Results

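Single-cell RNA sequencing of CD45+ cells from MC38 tumors gave 64 profiles that carried T cell and macrophage RNA together, 36 from a control pool and 28 from a pool of mice given telmisartan. The 64 were chosen by their own measured counts: at least 2 unique molecular identifiers (UMIs, each standing for 1 captured RNA molecule) of the CD3 genes Cd3d, Cd3e and Cd3g summed, and at least 10 UMIs of the complement genes C1qa, C1qb and C1qc summed. They made up 0.646% of the 9911 profiles kept, which were drawn from 20726 putative cells by asking for at least 10 Sample Tag reads with 75% or more on the tag of 1 pool, 150 to 5000 genes, and at most 20% mitochondrial UMIs. Since the CD3 and C1q counts picked the profiles, the levels of these 6 genes only describe the set.

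Telmisartan blocks the type 1 receptor of angiotensin II. Female C57BL/6 mice aged 6 to 8 weeks bore subcutaneous MC38 colon tumors, were dosed daily by gavage with 5 mg/kg telmisartan or with vehicle, and had their tumors harvested on day 13. Live CD45+ cells of 5 mice were pooled in each group, each pool carried its own Sample Tag (an antibody with a barcode), and both pools entered 1 capture. With 1 pool per group there was no replicate check, and every interval given here is a 95% interval for counting error only.

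A T cell senses antigen through its receptor, and the CD3 chains carry the signal into the cell. C1q starts the classical complement cascade, and in tumors macrophages are a main source of it. A single cell with both kinds of RNA, 2 cells read under 1 barcode and stray RNA from other cells cannot be told apart in these counts.

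The genes of the rule sit in 2 clusters of the GRCm38 genome. Cd3g, Cd3d and Cd3e lie side by side at chr9:44969572-44980431 (minus strand), chr9:44981786-44987339 (plus strand) and chr9:44998740-45009627 (minus strand). C1qb, C1qc and C1qa lie at chr4:136880129-136886187, chr4:136889804-136893065 and chr4:136895917-136898803, all on the minus strand. Ccl12, a chemokine gene outside the rule, lies at chr11:82101845-82103400 on the plus strand. It was above macrophage profiles in control members but below them in telmisartan members.

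Most members were well clear of the C1q threshold, and fewer were clear of the CD3 threshold. CD3 UMIs ran from 2 to 24 with a median of 4, and C1q UMIs from 10 to 241 with a median of 62.5. Exactly 2 CD3 UMIs were counted in 14 members, 5 or more in 28, and all 3 CD3 genes were seen in 29. C1q counts of 10 to 14 occurred in 2 members and of 50 or more in 40, and 60 members held all 3 C1q genes. Just outside the rule were 87 profiles with 1 CD3 UMI and at least 10 C1q UMIs, 10 profiles with at least 2 CD3 UMIs and 5 to 9 C1q UMIs, and 68 with 1 to 4 C1q UMIs.

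Levels in the members were read beside 2 sets that hold only 1 of the signals. T cell profiles had at least 2 CD3 UMIs and 0 C1q UMIs (90 profiles, 36 control and 54 telmisartan). Macrophage profiles had at least 10 C1q UMIs and 0 CD3 UMIs (4708 profiles, 2577 control and 2131 telmisartan). Gene levels are given as CPM, counts per 1000000: the UMIs of a gene divided by all UMIs of a set, times 1000000.

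The members were 36 of 5078 kept control profiles (0.709%, 0.497 to 0.980) and 28 of 4833 kept telmisartan profiles (0.579%, 0.385 to 0.836). Their share differed more when the denominator was the profiles with at least 2 CD3 UMIs: 36 of 99 in control (36.4%, 26.9 to 46.6) and 28 of 133 in telmisartan (21.1%, 14.5 to 29.0). The log2 ratio of telmisartan to control was -0.29 (-1.06 to 0.46) among all kept profiles and -0.79 (-1.56 to -0.04) among CD3 profiles. Among profiles with at least 10 C1q UMIs the shares lay close together, 1.35% in control and 1.27% in telmisartan. The denominators themselves differed, since CD3 profiles were 1.95% of control and 2.75% of telmisartan profiles, and C1q profiles were 52.3% and 45.5%.

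Depth bears on a rule made of UMI minimums, and control members were the deeper ones. Applying the rule to profiles thinned to 4000 UMIs gave an expected 13.1 members of 4185 control profiles (0.314%) and 12.1 of 3463 telmisartan profiles (0.348%), where the same profiles unthinned held 36 (0.860%) and 26 (0.751%), and 2263 of the 9911 kept profiles were too shallow to enter. At 5000 UMIs the expected shares were 0.433% and 0.521%. The log2 ratio was then 0.15 at 4000 UMIs and 0.27 at 5000 UMIs, opposite in sign to the unthinned ratio. The share among all kept profiles therefore had no settled direction between the pools. The share among CD3 profiles was not recomputed at these depths.

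Members held more RNA than either comparison set. Control members had a median of 15364 UMIs (lowest 5499, highest 22979) and telmisartan members 9697 (2595 to 18425), beside medians of 11144 and 8606 in macrophage profiles and 2920 and 2837.5 in T cell profiles. The mean of the control members, 15128 UMIs, stood next to 15357 for the mean T cell profile plus the mean macrophage profile, whereas the telmisartan members averaged 10181 beside a sum of 13032. Median genes per member were 4036.5 in control and 3091 in telmisartan, and median mitochondrial shares were 8.13% and 10.4%.

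**Figure D1:**
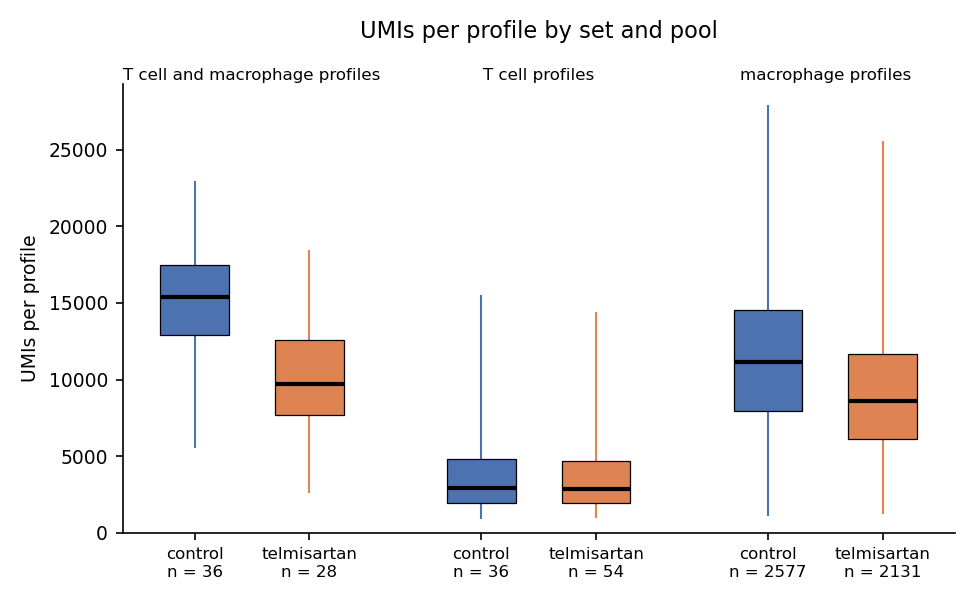
UMIs per profile in the T cell and macrophage profiles, T cell profiles and macrophage profiles of each pool (line, median; box, middle 50%; whisker, lowest to highest). Control members had the highest median of the 6 groups, 15364 UMIs, and telmisartan members had 9697.

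Doublets were scored but no profile was removed for its score. Scrublet, which rates how far a profile resembles 2 summed profiles of the same data, gave the members a median of 0.409 in control and 0.424 in telmisartan, T cell profiles 0.132 and 0.140, and macrophage profiles 0.267 and 0.246. Its automatic threshold called 1017 kept profiles doublets, among them 36 of 64 members (56.2%), 19 of 36 in control and 17 of 28 in telmisartan. It called 677 of 4708 macrophage profiles (14.4%) and 4 of 90 T cell profiles. Whether a given member was 1 cell or 2 was not tested.

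Sample Tags gave a second view of mixing. Members had a median of 481.5 tag reads in control and 326 in telmisartan, beside 260 and 264 in macrophage profiles and 121 and 136 in T cell profiles. The 2 comparison medians summed to 381 in control, below the members, and to 400 in telmisartan, above them. Member means, 751 and 466, were below the summed means of 1008 and 560 in each pool. In the members, a median of 2.01% and 3.49% of tag reads fell on other tags. Profiles whose reads were split between the pools, 941 within the same limits, held 7 that passed the CD3 and C1q counts (0.744%, 0.300 to 1.53). That was 29.2% (12.6 to 51.1) of the 24 split profiles with at least 2 CD3 UMIs, beside 27.6% (21.9 to 33.8) among kept profiles. The interval on 24 profiles is too wide to tell whether the shares were alike. In those 7 the telmisartan tag took from 32.6% to 59.3% of reads. Above 5000 genes lay 90 assigned profiles, of which 4 passed the CD3 and C1q counts (4.44%), and above 20% mitochondrial UMIs 2 of 7056 did (0.0283%).

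T cell RNA in the members was not limited to CD3. A list of 20 T cell genes outside the rule reached 2222 CPM in control members and 2975 in telmisartan members, beside 10557 and 11185 in T cell profiles and 23.5 and 30.4 in macrophage profiles. Thy1, a surface glycoprotein of T cells, was its most abundant gene over all members at 321 CPM (1460.3 in T cell profiles, 3.23 in macrophage profiles), and in telmisartan members Trbc2 came first, with 99 UMIs to 93. All 20 genes of the list lay between the comparison sets, that is, at most 1.5-fold above the higher or below the lower, but so did 88.1% of 11845 genes with at least 50 UMIs in the 3 sets, and placement therefore says little. Trac and Trbc2, the constant regions of the receptor chains, stood at 269 and 277 CPM, and 59 of 64 members held a UMI of Trac, Trbc1 or Trbc2. Counted per profile, the list came to 33.6 UMIs in control and 30.3 in telmisartan members, below the 41.2 and 42.4 of T cell profiles. In 2 members, each with only 2 CD3 UMIs, no gene of the list was seen, so for these the T cell label rests on the rule alone.

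CD8 and CD4 lineages were both present. A UMI of Cd8a or Cd8b1 without Cd4 was found in 26 of 64 members (15 control, 11 telmisartan), Cd4 without either CD8 gene in 19 (13 and 6), both in 1 and neither in 18 (7 and 11). T cell profiles split as 57, 26, 1 and 6 of 90, at a median depth of 2866.5 UMIs against 13269 in members. By pool this was 18, 12, 1 and 5 of 36 in control and 39, 14, 0 and 1 of 54 in telmisartan. Thinned to 2000 UMIs by a seeded random draw, Cd8a was left in 11 of 64 members (17.2%, from 34.4% unthinned) and in 34 of 65 T cell profiles (52.3%, from 57.8%), with 25 shallower T cell profiles left out. Macrophage profiles kept Cd8a in 0.0642% after thinning (0.510% before) at a median depth of 9956 UMIs, with 34 left out. Foxp3, the master regulator of regulatory T cells, marked 17 of 64 members and 14 of 90 T cell profiles unthinned. At 2000 UMIs it marked 7 of 64 (10.9%) and 10 of 65 (15.4%), and the order changed with the pool. Members against T cell profiles were then 3 of 36 (8.33%) and 5 of 25 (20%) in control. In telmisartan they were 4 of 28 (14.3%) and 5 of 40 (12.5%).

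To compare T cell genes at equal T cell content, their UMIs were set against 100 UMIs of Trac, Trbc1 and Trbc2 within each pool, beside T cell profiles with 0 C1q UMIs and the 78 T cell profiles with 1 to 9. Ctla4, an inhibitory receptor gene, was higher in members than in either T cell set, 60.2 (49.9 to 72.4) against 39.3 (32.1 to 47.9) and 35.8 (29.5 to 43.3) in control, and 61.3 (48.4 to 77.5) against 37.4 (31.5 to 44.3) and 31.6 (27.1 to 36.7) in telmisartan. Since Ctla4 was also found in 21.4% of macrophage profiles, part of its count need not belong to T cells. Foxp3 was 17.5 against 11.98 and 9.44 in control and 12.4 against 5.35 and 4.28 in telmisartan, with 15 of 54 and 9 of 24 member UMIs from 1 member. Cd4 was lower in control members, 11.0 against 25.3 and 18.2. In telmisartan it was 15.5 against 10.7 and 9.25, with 18 of 30 member UMIs from 1 member.

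For Gzmb, Icos and Prf1 the order of members and T cell profiles changed with the T cell set or the pool, and whether the pools differed was not tested. Gzmb, the protease of cytotoxic granules, stood at 62.5 in control members against 71.3 and 23.5, and at 58.2 in telmisartan members against 45.0 and 40.6. The co-stimulatory receptor gene Icos was 64.1 against 64.6 and 28.1 in control and 91.2 against 55.8 and 38.5 in telmisartan, where 67 of its 177 member UMIs came from 1 member. Prf1, the pore protein that lets granzymes in, was 2.91 against 6.41 and 0.726 in control and 3.09 against 7.33 and 5.80 in telmisartan, on 15 member UMIs of which 5 came from 1 member. By contrast, 2 other genes of cytotoxic T cells were lower in members than in either T cell set in each pool, with intervals that overlapped in part. Nkg7, a granule protein, was 31.1 against 35.7 and 32.7 in control and 28.4 against 49.9 and 39.1 in telmisartan. The cytokine gene Ifng was 7.44 against 30.4 and 24.5 in control and 21.6 against 24.2 and 30.7 in telmisartan. Ccl5, a chemokine gene of the CD8 and cytotoxic list, went the other way in each pool. It was 45.6 against 26.2 and 19.4 in control and 59.8 against 39.6 and 40.2 in telmisartan. Macrophage profiles held 2395 Ccl5 UMIs, so part of its count need not belong to T cells. Cd8a and Cd8b1 summed were 26.2 against 26.2 and 21.1 in control and 36.6 against 50.1 and 30.8 in telmisartan.

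Macrophage RNA in the members likewise went beyond C1q. A list of 18 macrophage genes summed to 26733 CPM in control members and 28585 in telmisartan members, beside 29951 and 32751 in macrophage profiles and 5478 and 5363 in T cell profiles. Lyz2, the lysozyme gene of myeloid cells, made 28.1% of it, at 7703 CPM in members, 10211 in macrophage profiles and 1501 in T cell profiles. Profiles with 0 C1q UMIs were not free of macrophage RNA, as 58 of 90 T cell profiles held Lyz2 and 30 held Apoe. The source of that RNA was not tested. Csf1r, the receptor for the main macrophage growth factor, was seen in 60 of 64 members, and the F4/80 gene Adgre1 stood at 169.9 CPM beside 179.8 in macrophage profiles. Per profile, the members held 404 list UMIs in control and 291 in telmisartan, next to 343 and 303 in macrophage profiles. Relative to macrophage profiles the list was lower in CPM, at log2 -0.18 (-0.20 to -0.16), whereas per profile it was 0.13 over both pools, higher than macrophage profiles in control and lower in telmisartan.

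**Figure D2:**
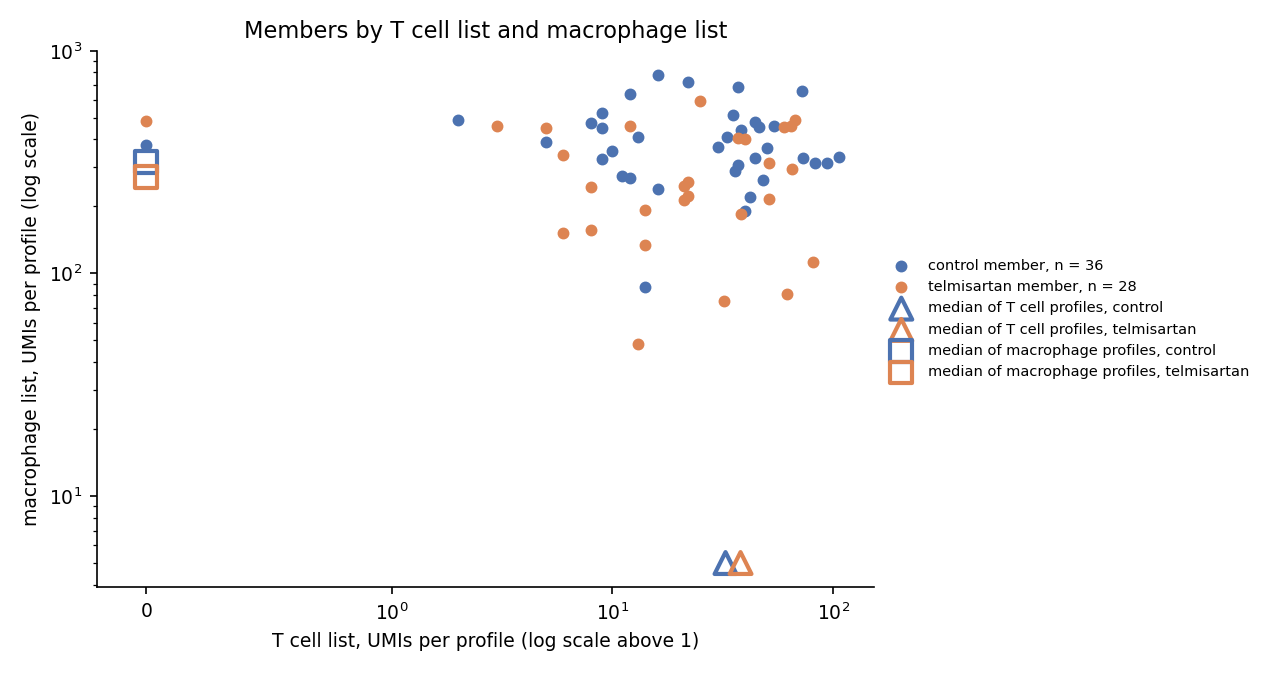
Macrophage list UMIs against T cell list UMIs in each member (filled points, by pool), with the medians of T cell profiles (triangles) and macrophage profiles (squares). Members had a median of 27.5 T cell list UMIs and 336.5 macrophage list UMIs, and 2 members had 0 T cell list UMIs.

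A list of 12 genes for the C1q-high macrophage program was lower in telmisartan members in sum, with genes that moved in opposite directions. It stood at 4959.5 CPM in control members and 3603 in telmisartan members, while macrophage profiles held 3363 and 3488. Ccl12, which draws in monocytes, made 26.7% of the list over all members. It reached 1656 CPM in control members and 323 in telmisartan members, beside 593 and 479 in macrophage profiles. Without Ccl12 the sum was level, 3303 CPM in control and 3279.8 in telmisartan members (log2 -0.01, -0.13 to 0.10), but single genes were not. Of the 9 genes with at least 50 member UMIs, Ccl12 included, 3 were higher in telmisartan. The chemokine gene Ccl7 fell by 0.71 (0.18 higher in macrophage profiles) and Fcrls by 1.69, while Pf4 rose by 0.42 and Ccl8 by 1.89. Per profile Pf4 was lower in telmisartan (-0.15). Ccl8 gave -0.71 in macrophage profiles, and 17 of its 33 UMIs in telmisartan members came from 1 member. Ms4a7, a tetraspan gene of macrophages, was 494 and 547 CPM in the members beside 319 and 380.3 in macrophage profiles, and the selenium carrier gene Selenop 498 and 453 beside 329 and 359.8.

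Ccl12 exceeded macrophage profiles only in the control pool among the 2 pools. Its log2 ratio to macrophage profiles was 1.48 (1.38 to 1.58) in control members and -0.57 (-0.88 to -0.27) in telmisartan members. Per profile the median was 8.5 UMIs in control (0 to 129) and 1 in telmisartan (0 to 30), beside a median of 1 in the macrophage profiles of each pool. After thinning to 2000 UMIs, 18 of 36 control members and 10 of 28 telmisartan members (35.7%) kept a Ccl12 UMI, as did 31.9% and 32.8% of macrophage profiles. At that depth T cell profiles kept it in 0 of 25 in control, which allows up to 13.7%, and in 2 of 40 in telmisartan, and a gene at a low level can go unseen in 2000 UMIs.

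MHC class II genes, which present antigen to CD4 T cells, were lower in members than in macrophage profiles. That held for 6 of 6 genes of the list, for 12 of 18 macrophage list genes, and for 43.2% of 2817 genes with at least 50 member UMIs. The list summed to 8681 CPM in control members and 4736 in telmisartan members, beside 15197 and 9753 in macrophage profiles. Per profile the sum was lower as well, 131 against 174 UMIs in control and 48.2 against 90.2 in telmisartan. Cd74, the invariant chain and the most abundant of the 6, stood at 2850.5 CPM in members and 4922 in macrophage profiles. MHC class I genes, shown to CD8 T cells, moved the opposite way: 11158 and 12569 CPM in members beside 10061 and 10588 in macrophage profiles, with 14221 and 14528 in T cell profiles.

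The interferon-gamma response list was also below macrophage profiles, at 2199.7 CPM in control and 1669.7 in telmisartan members beside 3129 and 2406. Cxcl9, a chemokine gene that draws in T cells with the receptor CXCR3, contributed most, at 477 CPM in members, 836 in macrophage profiles and 17.4 in T cell profiles. Genes for the surface proteins and chemokines by which macrophages meet T cells came to 2565 and 2445 CPM in members beside 2551 and 2833 in macrophage profiles. Their T cell counterparts came to 1749.9 and 2178 beside 5357 and 4771 in T cell profiles, and Icos was the most abundant of them over all members. Itgal, the integrin chain of LFA-1 that binds ICAM-1, was 176 CPM in members, 475 in T cell profiles and 84.6 in macrophage profiles.

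Engulfment genes, which serve the uptake of dying cells, were near their level in macrophage profiles. The list summed to 1430.4 CPM in control and 1764 in telmisartan members beside 1618 and 1720.0. Mertk, a receptor for dying cells, stood at 92.8 CPM in members and 105 in macrophage profiles, and its relative Axl at 129 and 206. Whether T cell RNA had been taken up by macrophages was not tested.

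Lists for other cell types gave few UMIs. Members held 13 UMIs of the neutrophil list, 11 of them Csf3r, and 0 of Cxcr2 and S100a9. They held 43 of the dendritic cell list, 27 of them the migration receptor Ccr7, and 0 of Xcr1. At 51.8 CPM this list was above the 18.6 of macrophage profiles (log2 1.48, 1.00 to 1.92) and below the 115.9 of T cell profiles (-1.16, -1.82 to -0.50), in which Ccr7 made 72.5% of it. The T cell profiles of the control pool held 0 UMIs of it, against 58.8 CPM in control members. B and plasma cell genes gave 3 UMIs, mast cell and basophil genes 0, tumor epithelial genes 4 (all Epcam), fibroblast and endothelial genes 18, and red blood cell genes 1. Genes of gamma-delta T and natural killer cells gave 22, which was 23.9 CPM in control and 31.6 in telmisartan members.

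**Figure D3:**
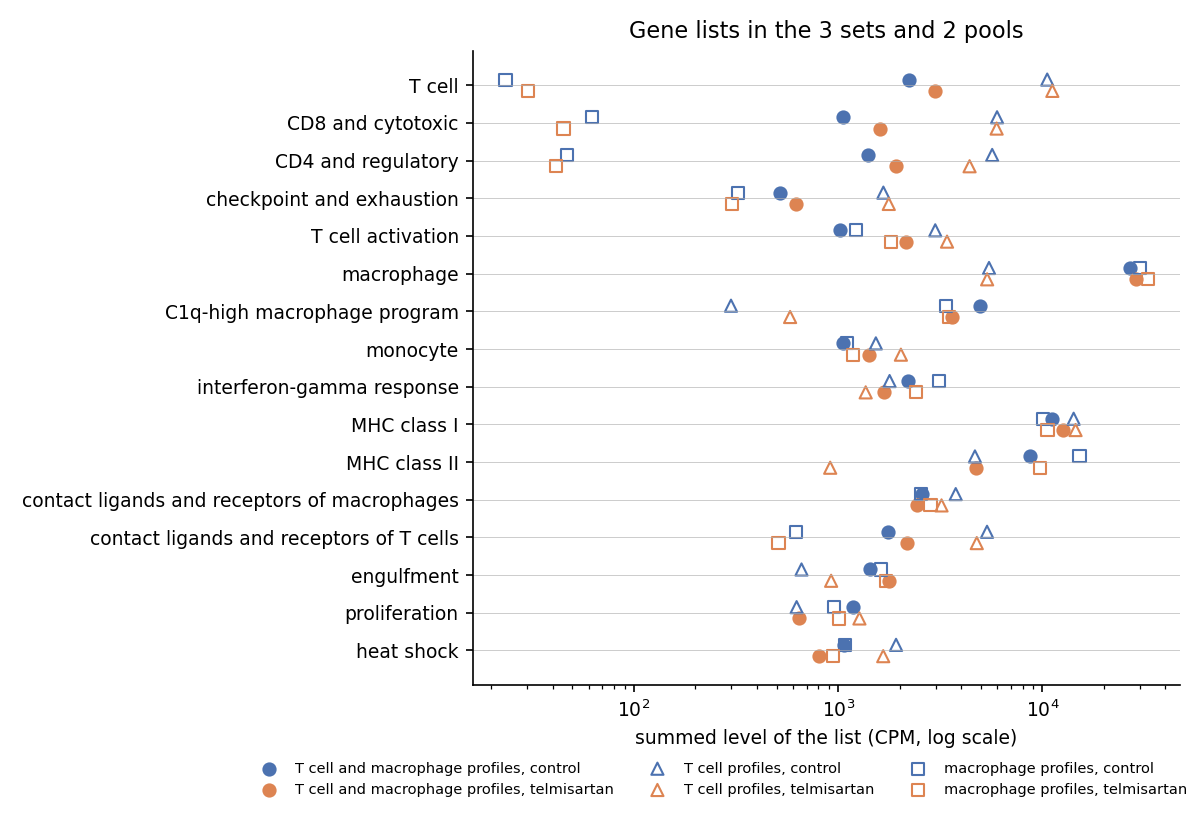
Summed level (CPM, log scale) of the 16 lists with at least 100 UMIs in the members, in the 3 sets (shape) and 2 pools (color). The T cell list stood at 2222 and 2975 CPM in members, between the T cell and macrophage profiles, and the macrophage list at 26733 and 28585 CPM, near the macrophage profiles.

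Across genes, the members mostly lay between the comparison sets. Of 11845 genes with at least 50 UMIs in the 3 sets together, leaving out the 6 of the rule, 583 (4.92%) were more than 1.5-fold above both sets and 823 (6.95%) more than 1.5-fold below both. These counts were made mainly of sparse genes, with a median of 6 member UMIs for those above and 1 for those below, and 144 and 186 of them held in each pool alone. Asking for at least 50 UMIs in the members left 7 of 2817 genes above (0.248%) and 4 below (0.142%). Of these 11 genes, 0 passed 1.5-fold in each pool alone, so the placements that follow rest on 1 pool.

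Ccl12 led the genes above both sets with the pools summed, at 1198 CPM in members, 46.4 in T cell profiles and 547 in macrophage profiles. The other 6 with at least 50 member UMIs were Swap70 (actin regulator, 60.3 CPM beside 31.9 and 37.0), Bag6 (chaperone, 97.6 beside 60.8 and 56.7), Mgat1 (glycan enzyme, 104 beside 46.4 and 65.2), Snx8 (sorting nexin, 67.5 beside 23.2 and 42.6), Actl6a (chromatin remodeling, 88.0 beside 46.4 and 57.5) and Ifih1 (RNA sensor, 61.5 beside 34.8 and 40.5). Ccl12, Bag6, Snx8, Actl6a and Ifih1 were above both sets in control only, and Swap70 and Mgat1 in telmisartan only. Apart from Ccl12 the log2 ratios to the higher set were at most 0.70.

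The genes lowest beside both sets could not be ranked as planned, because 209 genes with 0 member UMIs tied. Their UMIs in the 3 sets had a median of 81 and reached 459. Among genes with at least 50 member UMIs, the 4 below both sets were Inhba (activin subunit, 104 CPM beside 179.6 in T cell and 211 in macrophage profiles), Egr1 (early activation factor, 145 beside 246 and 256), Il1r2 (decoy receptor, 111 beside 209 and 172) and Tob2 (antiproliferative factor, 67.5 beside 209 and 101). Egr1 and Tob2 were below both sets in control only, and Inhba and Il1r2 in telmisartan only. Inhba was uneven, as 15 of its 21 telmisartan UMIs came from 1 member (71.4%).

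Between the pools, telmisartan members were more than 2-fold higher for 65 of 2823 genes with at least 50 member UMIs (2.30%) and more than 2-fold lower for 63 (2.23%). The median log2 ratio over these genes was -0.03. Lists with the most genes past 2-fold were T cell activation, with 4 of 7 higher, the C1q-high program, with 1 higher and 2 lower of 9, the CD8 and cytotoxic list, with 2 of 6 higher, and MHC class II, proliferation and heat shock, with 2 lower each.

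The 5 largest rises among genes with at least 100 member UMIs were led by Mmp12, an elastase of macrophages, at 274 CPM in control and 972 in telmisartan members (log2 1.83, 1.54 to 2.13), where macrophage profiles showed -0.10 and T cell profiles 2.61 (1.88 to 3.43, from 17 to 151 UMIs). In the telmisartan pool 85 of its 277 UMIs came from 1 member. Dusp2, a phosphatase induced in activated lymphocytes, rose from 101 to 358 CPM (1.82), with 33.7 and 95.3 CPM in macrophage profiles and 711 and 802 in T cell profiles, and the histone demethylase gene Kdm6b from 75.3 to 256 (1.77), with rises of 1.31 in macrophage and 1.25 in T cell profiles. Wfdc17, a secreted macrophage protein, rose from 103 to 351 CPM (1.77), with 49 of its 100 telmisartan UMIs in 1 member, 0.38 in macrophage profiles and -0.54 in T cell profiles. Egr1 rose from 80.8 to 267 CPM (1.72), more than in macrophage profiles (0.33) or T cell profiles (-0.03). Of its UMIs, 16 of 44 in control and 22 of 76 in telmisartan came from 1 member each.

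The 5 largest falls were led by Mgl2, a lectin of alternatively activated macrophages, at 345 CPM in control and 66.6 in telmisartan members (log2 -2.37, -3.14 to -1.69), where macrophage profiles fell as well (-1.34) and T cell profiles had 7 and 2 UMIs. Ccl12 followed at -2.36 (-2.69 to -2.05), far from the -0.31 of macrophage profiles. Heat shock gene Hspa1a (233 and 77.2 CPM, -1.60), chemokine gene Cxcl10 (364 and 123 CPM, -1.57) and chromatin gene Hmgn2 (163 and 59.6 CPM, -1.45) came next, and macrophage profiles gave -0.33, 0.03 and -0.38, T cell profiles -1.13, 1.22 and 0.09. Cxcl10 rested on few members, since 103 of 198 control UMIs and 26 of 35 telmisartan UMIs came from 1 member each. In telmisartan, 1 member each also supplied 8 of 19 UMIs of Mgl2 and 30 of 92 of Ccl12. In control, 1 member supplied 44 of 127 UMIs of Hspa1a.

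**Figure D4:**
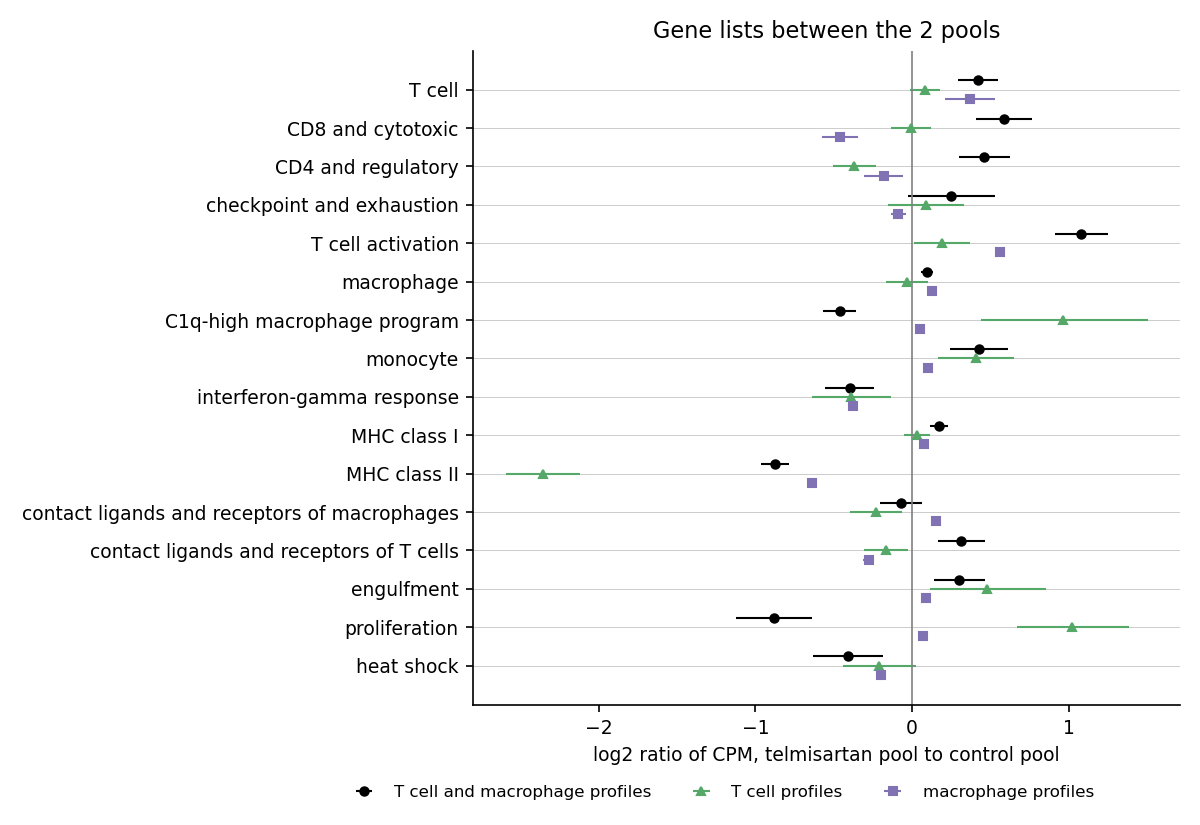
Log2 ratio of summed CPM, telmisartan to control, for the 16 lists with at least 100 UMIs in the members (points; bars, 95% counting intervals) in the 3 sets. In the members the T cell activation list was highest at 1.08 and the proliferation and MHC class II lists lowest at -0.88 and -0.87.

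T cell activation genes rose most of these 16 lists, from 1017 to 2154 CPM in members (log2 1.08, 0.91 to 1.25), with 0.19 in T cell profiles and 0.56 in macrophage profiles. Nr4a3, an early gene of receptor signaling, gave 1.63 in members, 1.52 in macrophage profiles and 1.09 in T cell profiles. Its relative Nr4a2 gave 1.39, 0.95 and 1.95, and Nr4a1 1.17, 0.77 and 0.35, so the rises of Nr4a3 and Nr4a2 were not particular to the members. These genes are not private to T cells, as Nr4a1 was found in 83.6% of macrophage profiles and 60.0% of T cell profiles. Per profile the list still rose, by 0.51.

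CD8 and cytotoxic genes went from 1061 to 1596 CPM in members (log2 0.59), where T cell profiles gave -0.01. Cd8a rose from 77.1 to 158 CPM (1.03, 0.39 to 1.68), as it did in T cell profiles (0.82, 0.36 to 1.29), where Cd8b1 rose by 0.98 against 0.35 in members. Ifng went from 42.2 to 147 (1.80, 1.04 to 2.60; T cell profiles -0.38), although 20 of the 23 control UMIs of Ifng came from 1 member. Neither rise held in every setting: without the highest Scrublet scores Cd8a gave -2.08, and with a C1q minimum of 5 UMIs Ifng gave -0.50. CD4 and regulatory genes summed to 1397 and 1926 CPM (0.46) against -0.37 in T cell profiles, but 5 of 8 genes were higher and 0 past 2-fold, Foxp3 went from 99.2 to 84.2 CPM (-0.24), 131 of 549 telmisartan UMIs came from 1 member, and the value was -0.07 with a mitochondrial limit of 10%. Per profile the CD8 list was level between pools (0.02) and the CD4 list slightly lower in telmisartan (-0.11).

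On the macrophage side, Apoe, a lipid carrier, rose in members from 1989 to 4129 CPM (log2 1.05), as it did in macrophage profiles (1.14) but not in T cell profiles (-0.80). Mrc1, the mannose receptor, fell from 635 to 358 CPM (-0.83; macrophage profiles -0.46), yet thinned to 2000 UMIs it was kept in 16 of 36 control (44.4%) and 16 of 28 telmisartan members (57.1%), against 52.8% and 43.5% of macrophage profiles. Cxcl9 fell from 560.0 to 319 (-0.81; macrophage profiles -0.91). MHC class II genes fell by 0.87 in members, 0.64 in macrophage profiles and 2.35 in T cell profiles, with H2-Eb1 at -1.15 and H2-DMb1 at -1.31 in the members. The macrophage list gave 0.10 in members and 0.13 in macrophage profiles by CPM, and -0.47 in members per profile.

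Proliferation genes fell in members from 1188 to 645 CPM (log2 -0.88, -1.12 to -0.64) but were level in macrophage profiles (0.07) and rose in T cell profiles (1.02). Cdk1, the kinase that starts mitosis, had 57 UMIs in control members and 3 in telmisartan members, and Top2a, which untangles DNA, went from 222 to 105 CPM (-1.08). A single member supplied 117 of the 647 control UMIs of the list (18.1%) and another 28.8% of the telmisartan UMIs.

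Limits follow from the design and the set. The groups were 1 pool each, so no difference between telmisartan and control can be separated from differences between tumors, mice or handling. Ratios between the pools rest on 544611 UMIs in 36 members and 285078 UMIs in 28 members, and single members often supplied a large part. CPM in a profile with 2 kinds of RNA depends on the amount of each, so a change in 1 kind shifts the other. The cause of the mixed profiles was not tested, and images, proteins and receptor sequences were not analysed here.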

How the data were processed

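The deposited UMI count table and Sample Tag read table were used as given; per the file headers they came from the BD Rhapsody WTA Analysis Pipeline 1.11 with GRCm38 and GENCODE M19, intronic reads included. Gene positions were taken from GENCODE M21 on GRCm38. UMIs were summed by set and pool and given as CPM. UMI intervals are exact Poisson, shares exact Clopper-Pearson, and log2 ratios exact conditional binomial. No test was run on cells, which are not replicates.

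Named genes came from 24 lists, from the genes with the 10 largest and 10 smallest ratios to both comparison sets (at least 50 UMIs in the members), and from the 5 largest rises and falls between pools (at least 100). 1 gene of the T cell list counts in its sums but is not reported here by itself. Members and lists were chosen with earlier results of these data known. Scrublet (scanpy 1.11.5, seeded, expected rate from the 8.67% split-tag profiles) scored profiles and removed none in the main results. The rule at 4000 and 5000 UMIs used exact expected counts. Other steps ran in Python 3.11.15 with numpy 2.4.6, scipy 1.17.1, pandas 2.3.3 and matplotlib 3.10.9. The alternatives tried changed the tag share, gene and mitochondrial limits, CD3 and C1q minimums, doublet handling, comparison sets, depth and the unit of the sums.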

Additional observations from a re-analysis of the deposited data

Results flagged for a closer look

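The T cell activation list differed in direction between the pools when members were set beside macrophage profiles of the same pool. Its log2 ratio was -0.27 in control and 0.25 in telmisartan, both with counting intervals clear of 0, and the difference was not tested. Nr4a1 was its most abundant gene in the members of each pool.

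The proliferation list also changed direction between the pools beside macrophage profiles, 0.31 in control and -0.64 in telmisartan, again with intervals clear of 0. Stmn1 was its most abundant gene in the members of each pool, and the difference was not tested.

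Profiles with tag reads split between the pools were outside the rule. They set the doublet rate given to Scrublet and are described beside the tag reads, and no gene level includes them. Of these, 0.744% carried at least 2 CD3 UMIs and at least 10 C1q UMIs, beside 0.646% of kept profiles, and the difference was not tested.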

How the results depend on the processing

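The results were recomputed under 19 other settings. Thinning before the rule, UMIs per profile, the minimum of 50 UMIs in the members and lists without their most abundant gene were chosen after seeing the data. A value counted as same when inside the main interval (for counts, within 1.5-fold), whatever its sign, as reversed when its sign changed and the main interval was clear of 0, and otherwise as moved. For the 10 leading results, 84 of 110 values were same, 25 moved and 1 reversed. For the other lists and genes 1923 of 2362 were same, 401 moved and 38 reversed. By sign alone, 3 of 50 leading log2 values and 212 of 2362 others changed direction. The cause was not tested.

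The number of members went from 64 to 42 with a mitochondrial limit of 10% and to 28 without the highest Scrublet scores. The log2 ratio of shares among kept profiles, -0.29, became 0.15 and 0.27 with the rule applied at 4000 and 5000 UMIs.

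The T cell list against T cell profiles, log2 -2.14, was -2.03 with a tag share of 90%, -1.85 with at least 3 CD3 UMIs, -1.97 with at least 2 CD3 genes, -1.89 with a C1q minimum of 5, -2.29 without the highest Scrublet scores, -1.89 beside T cell profiles with 0 to 9 C1q UMIs, -2.26 when thinned to 2000 UMIs and -0.38 per profile. The macrophage list against macrophage profiles, -0.18, was -0.25 with a tag share of 90%, -0.22 without a gene maximum, -0.21 with a mitochondrial limit of 10%, -0.25 with at least 3 CD3 UMIs, -0.24 and -0.21 with C1q minimums of 5 and 20, -0.082 without the highest Scrublet scores, -0.16 without mitochondrial and ribosomal protein genes, -0.085 without Lyz2, and 0.13 per profile.

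Genes above and below both sets, 583 and 823, became 976 and 1350 without the highest Scrublet scores and 7 and 4 with at least 50 member UMIs. Genes over 2-fold higher in telmisartan went from 65 to 40 without the highest Scrublet scores, and those lower from 63 to 96 with a mitochondrial limit of 10%.

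Reversals of telmisartan to control in members follow, as log2 in the main setting and then in the other. With a mitochondrial limit of 10%: the CD4 and regulatory list 0.46 and -0.072, Icos 0.77 and -0.13, Tnfrsf9 0.59 and -0.57. With at least 3 CD3 UMIs: Ccl4 -0.58 and 0.020. With a C1q minimum of 5: Ifng 1.80 and -0.50, Lyz2 0.11 and -0.033. Without the highest Scrublet scores: B2m 0.13 and -0.058, Cd8a 1.03 and -2.08, H2-Ab1 -0.78 and 0.073, Ly6c2 1.40 and -1.73, Ms4a4b 1.18 and -0.31. Thinned to 2000 UMIs: Cxcr6 0.84 and -0.052, H2-K1 0.26 and -0.024, Irf1 0.64 and -0.12, Lyz2 0.11 and -0.0050, Mki67 -0.73 and 0.17.

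Counted per profile, where telmisartan members were shallower, these lists turned lower in telmisartan: T cell -0.15, CD4 and regulatory -0.11, macrophage -0.47, monocyte -0.14, MHC class I -0.40, T cell contact -0.26 and engulfment -0.27. So did B2m -0.44, Cd68 -0.34, Ctsb -0.15, H2-D1 -0.31, H2-K1 -0.31, Lyz2 -0.46, Pf4 -0.15, Tapbp -0.17 and Trbc2 -0.041.

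Against macrophage profiles, the macrophage contact list, -0.08, was 0.025 with a mitochondrial limit of 10% and 0.23 per profile. Engulfment genes, -0.10, were 0.11 without the highest Scrublet scores and 0.21 per profile, Irf7, 0.74, was -0.10 with at least 2 CD3 genes, and Actl6a, 0.61, was -0.24 thinned to 2000 UMIs. The shares thinned to 2000 UMIs are in the report.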
